A study of Mus musculus with 4 samples.

Results

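Transcripts of 10 genes of oxygen sensing and blood vessel signalling were followed in mouse medulloblastoma cells given a Hedgehog pathway inhibitor. The genes were chosen by symbol, as the subunits of the hypoxia-inducible factors (HIFs), their regulators, the ligands Vegfa and Vegfb, and the peptide gene Adm. All 10 were found among the 55573 genes of the count table, 9 had reads and the same 9 passed the filter on low counts. The cells, named SmoWT in the labels, are of the Sonic Hedgehog subtype; they derive from medulloblastomas that arose spontaneously in Ptch1+/-, Trp53-/- animals, with the strain given as C57BL/6. Both groups share this genotype and were grown as neurospheres in Neurobasal medium, and the oxygen level of the cultures is not given in the sources used here. One group of 2 libraries had the solvent DMSO and the other group of 2 had GDC0449 at 0.1 µM (vismodegib, which blocks the Hedgehog signal transducer Smoothened), both for 24 h. The comparison asks which transcripts differ after Smoothened inhibition. Nothing in the labels says that the replicates were separate cultures, so the p-values reflect the spread among these 4 libraries alone, and that spread may be technical.

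HIF is a pair of proteins, an alpha subunit that is controlled by oxygen and a stable partner, ARNT. In the presence of oxygen the Egln enzymes (prolyl hydroxylases, also called PHD proteins) mark the alpha subunit, and the VHL protein then directs it to destruction. When oxygen falls the alpha subunit persists, and the pair binds hypoxia response elements and activates genes such as Vegfa, Adm, Egln1 and Egln3. HIF activity is thus set largely at the level of protein, which RNA counts do not measure.

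The promoter sequences are shown for Vegfa and Egln3 because these were the members that changed, in opposite directions. Windows of 250 bases before each annotated start were taken from RefSeq (GRCm38.p6) and were found for 9 of the 10 members, 11 windows in all, because Vegfa and Egln2 each have a pair of start sites. Capitals mark the cores of hypoxia response elements, ACGTG or GCGTG on either strand, and GC boxes, GGGCGG on either strand. The sequences are written 5′ to 3′ on the strand of the gene, which is the minus strand for both. The first is the window before the upstream start of Vegfa, at chr17:46032378-46032627, and the second the window before Egln3, at chr12:54203875-54204124.
Vegfa, upstream start: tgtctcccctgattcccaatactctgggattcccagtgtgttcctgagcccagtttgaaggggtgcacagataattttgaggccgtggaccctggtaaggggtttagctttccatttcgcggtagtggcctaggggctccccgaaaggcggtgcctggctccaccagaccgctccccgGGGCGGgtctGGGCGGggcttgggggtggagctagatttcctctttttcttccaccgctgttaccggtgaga
Egln3: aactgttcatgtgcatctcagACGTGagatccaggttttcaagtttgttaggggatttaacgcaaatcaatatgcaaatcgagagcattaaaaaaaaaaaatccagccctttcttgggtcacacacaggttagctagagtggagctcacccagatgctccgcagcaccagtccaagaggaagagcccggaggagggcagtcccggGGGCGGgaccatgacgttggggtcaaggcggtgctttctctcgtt

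The Egln3 window held 1 core, beginning 229 bases before the start, and 1 GC box. The window before the upstream Vegfa start held 2 GC boxes, 72 and 62 bases before the start, and these letters of the core were not in it. Bases further upstream were not searched, so cores outside the windows are not covered. Cores were also found before the downstream Vegfa start and before Egln1, Egln2, Hif1a, Arnt, Vegfb and Adm, but not before Vhl. Examples from the downstream Vegfa start, Egln1, Hif1a and Adm are shown with 10 flanking bases on each side and only the cores in capitals. They let genes with and without a change be compared. The Vegfa stretch lies at chr17:46025367-46025391 on the minus strand, that of Egln1 at chr8:124949308-124949332 on the minus strand, that of Hif1a at chr12:73907722-73907746 on the plus strand and that of Adm at chr7:110627593-110627617 on the plus strand. In the GENCODE M21 annotation the Vegfa stretch lies in a coding exon of Vegfa and the Hif1a stretch in an intron of Hif1a, which has another start further upstream. The Egln1 stretch reaches into the first exon of Egln1, and its core lies inside that exon. The Adm stretch lies before Adm, in an intron of the gene Gm28863. Both full windows shown lie outside any annotated gene.
Vegfa, downstream start: gccctggagtGCGTGccCACGTcag
Egln1: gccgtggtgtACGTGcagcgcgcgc
Hif1a: cacagacaagCACGTGagcggggca
Adm: caaatctgacCACGCccaccgtccg

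In the Hif1a stretch the core is read on both strands at once, as the palindrome CACGTG. Of the 11 member windows 9 held a core of either kind, against 38.6% of 32851 RefSeq promoter windows of the same length. GC boxes, which can lie beside cores but did not overlap them here, were in 7 member windows and in 32.7% of all windows. The Gli binding consensus GACCACCCA, searched on both strands, was in 0 member windows and in 0.225% of all windows. These matches are descriptions of letters. Windows with a core belonged to members that rose, fell and were not called.

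**Figure D1:**
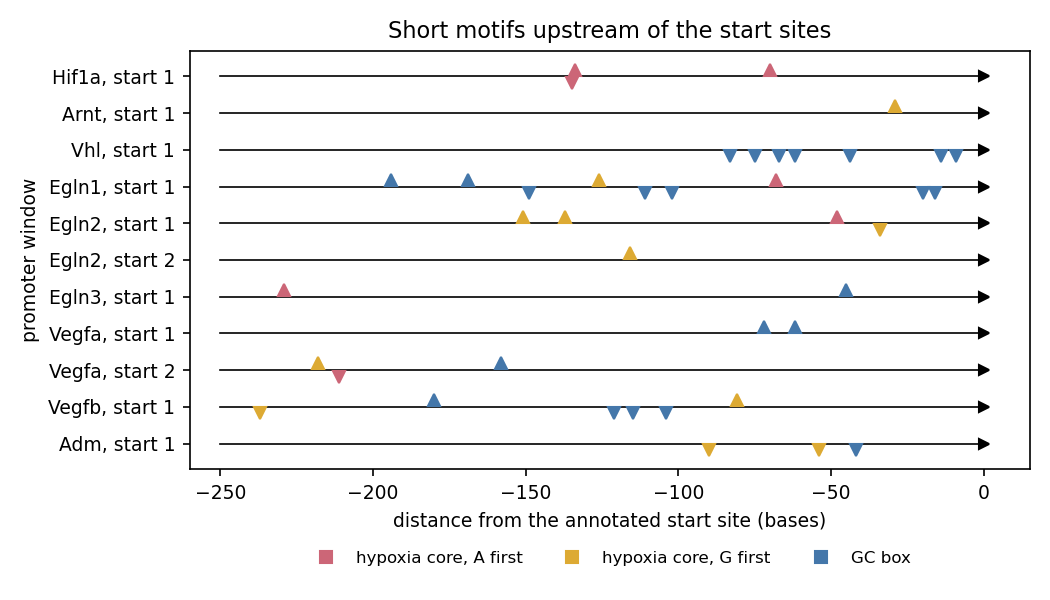
Short motifs in the 250 bases before each annotated start of 9 members, by distance from the start in bases. Triangles above a line are on the strand of the gene and those below it on the other strand; cores beginning with A are red, those beginning with G yellow and GC boxes blue. The upstream Vegfa start has 2 GC boxes and the Egln3 start has 1 core and 1 GC box.

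Libraries held 16329721 to 20790030 reads in genes. Reads outside annotated genes made up 12.3% and 13.2% of reads with DMSO and 14.3% and 14.4% with GDC0449, and the part of this difference in the results was not tested. The pathway readout Gli1, a Hedgehog target, was at 281 and 263 CPM in DMSO and at 38.8 and 32.7 CPM in GDC0449. CPM are read counts scaled to a common library size, with TMM factors between libraries. Of the granule neuron progenitor markers fixed for the check of cell type, all 7 had reads, from Barhl1 with 34 reads over the 4 libraries to Mycn at 1333 and 1281 CPM in DMSO and 884 and 912 CPM in GDC0449. Their sum was 2343 and 2416 CPM in DMSO and 1858 and 1962 CPM in GDC0449, with Atoh1 called higher and Gli1 lower. The lower sum came mainly from Mycn and Gli1, and the list did not move together. Of the 6 tested markers, Mycn (log2 fold change -0.54), Gli1 (-2.93) and Pax6 (-0.19) were below 0. Atoh1 (0.81), Zic1 (0.24) and Zic2 (0.38) were above 0.

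Of the 9 members tested with edgeR, Vegfa fell, Egln3 rose and the other 7 did not pass. A gene passed with a Benjamini-Hochberg adjusted p below 0.05 over all 15472 tested genes and a fold change over 1.5. By that rule 12.4% of all tested genes were called, 8.62% higher and 3.8% lower, so 1 higher and 1 lower member of 9 lie near the background. The median log2 fold change was 0.01 over the members and 0.01 over all tested genes. CPM of the groups did not overlap for 5 of the 9, and for 65.8% of all tested genes.

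**Figure D2:**
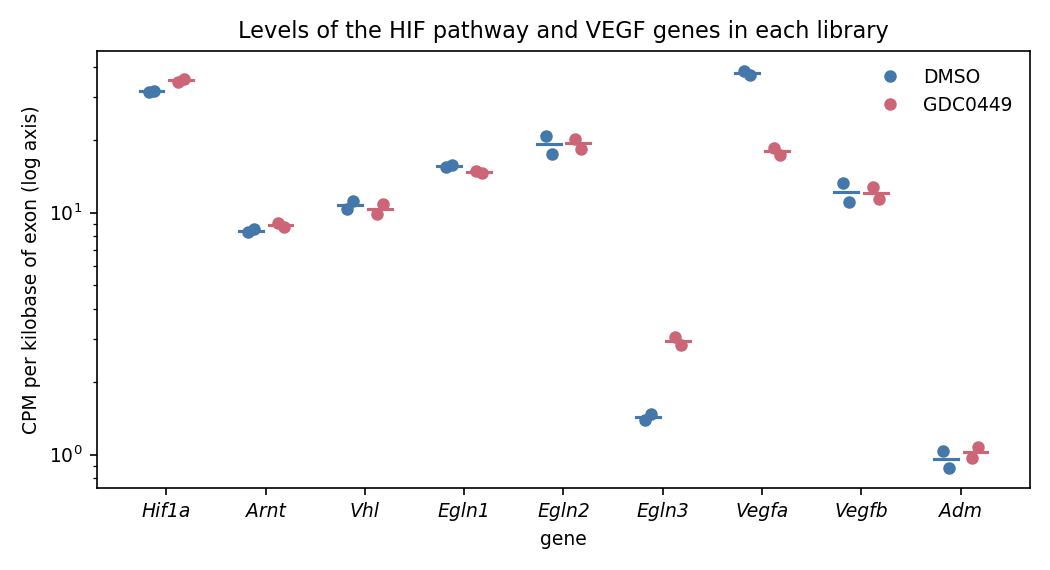
Levels of the 9 members with reads in each library, as CPM per kilobase of exon on a log axis; points are libraries and short lines the means of 2 libraries. Vegfa lies lower in both GDC0449 libraries, at 18.5 and 17.3, than in DMSO, at 38.6 and 37.1, and Egln3 lies higher; Epas1 had 0 reads and is not drawn.

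The alpha subunit RNA in these cells came from Hif1a, and Epas1 was not detected. Hif1a (ENSMUSG00000021109, chromosome 12, 73901375 to 73947530, GRCm38) encodes the broadly expressed alpha subunit. It was at 186 and 187 CPM in DMSO and at 205 and 209 CPM in GDC0449. Both GDC0449 libraries lay above both DMSO libraries, by a step that was small against the level itself. The log2 fold change was 0.15 ± 0.06 (SE), or 1.11-fold, with a 95% interval of 1.02 to 1.21-fold and an edgeR adjusted p of 0.0498. Hif1a therefore passed the adjusted p alone, as 35.9% of tested genes did, but not the fold threshold. Its adjusted p was 0.137 with DESeq2 and 0.0607 with relative log expression scaling, both above 0.05. Of its exonic bases 8.11% are shared with other annotated genes, which makes a small part of its count uncertain.

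Epas1 (ENSMUSG00000024140, chromosome 17, 86753700 to 86833410) encodes HIF-2 alpha, the subunit known from endothelium and some tumours. It had 0 reads in each of the 4 libraries, and its deposited FPKM was also 0 in each. The 4 libraries together held 77944561 reads in genes, so a count of 0 allows a level of up to 0.0385 CPM, taken as 3 reads. This covers counting error only, and no fold change can be given. Expressed genes near it on the chromosome, looked at after the values were seen, were well covered. Prkce had 939 to 1307 reads and Rhoq 592 to 784 reads per library, and Prkce was itself called lower (log2 -0.59). Their coverage does not show why Epas1 had 0 reads. Endothelial markers were also near 0. Of 9 listed genes, 4 (Cdh5, Kdr, Tie1 and Erg) had no read, and the list summed to 0.813 and 1.43 CPM in the DMSO libraries and to 0.948 and 1.42 CPM in GDC0449. Of the list 2 genes were tested, and they went opposite ways. Pecam1, with 35 reads over the 4 libraries, was called higher. Tek, with 44 reads, lay lower and was not called (log2 -1.04, edgeR adjusted p = 0.107). In bulk RNA, fewer cells of a type and less RNA per cell cannot be told apart.

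Hif3a, a related alpha subunit gene whose short forms restrain HIF, was scarce. It was at 9.30 and 7.32 CPM in DMSO and at 7.20 and 7.10 CPM in GDC0449, with an edgeR adjusted p of 0.28. Per kilobase of exon, Hif1a made up 95.8% and 96.7% of the summed level of Hif1a, Epas1 and Hif3a with DMSO, and 97.0% and 97.1% with GDC0449. Hif1a was thus the main source of alpha subunit RNA in every library.

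Arnt (ENSMUSG00000015522, chromosome 3, 95434388 to 95497240) encodes the shared beta subunit. It was at 66.5 and 68.3 CPM in DMSO and at 72.7 and 69.5 CPM in GDC0449. The GDC0449 libraries were the higher ones, but the gap between the groups was smaller than the gap within either pair. Its log2 fold change was 0.08 ± 0.07 (SE), with a 95% interval of 0.954 to 1.17-fold (edgeR adjusted p = 0.436). On log2(FPKM + 1) the direction turned, to a difference of -0.00063. Arnt2, the paralogous partner that is abundant in neural tissue, was at 93.5 and 98.9 CPM and then at 98.3 and 92.2 CPM, and these groups overlapped. Per kilobase of exon Arnt2 exceeded Arnt in every library, by ratios of 1.38 to 1.51. The deposited FPKM gave the other order, with Arnt at 11.9 to 13.5 and Arnt2 at 10.5 to 11.7. Which is more abundant thus depends on the unit used, and the reason for the difference was not tested.

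Vhl (ENSMUSG00000033933, chromosome 6, 113623959 to 113631633) encodes the part of the ubiquitin ligase that recognises hydroxylated HIF. It was at 31.0 and 33.5 CPM in DMSO and at 29.6 and 32.8 CPM in GDC0449. The groups overlapped, and the log2 fold change of -0.05 had a 95% interval of 0.853 to 1.10-fold (edgeR adjusted p = 0.747). A change as large as the 1.5-fold threshold lies outside that interval.

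Of the Egln genes, the least abundant rose and the abundant pair did not pass. Egln1 (ENSMUSG00000031987, chromosome 8, 124908587 to 124949324) encodes PHD2, the main oxygen sensor for HIF-1 alpha. It was at 55.2 and 56.3 CPM in DMSO and at 53.6 and 52.5 CPM in GDC0449. Both GDC0449 values were below both DMSO values by a small step. Its 95% interval was 0.856 to 1.06-fold (edgeR adjusted p = 0.509).

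Egln2 (ENSMUSG00000058709, chromosome 7, 27158658 to 27166802) encodes PHD1, whose gene is not known as a hypoxia target. It was at 58.1 and 48.9 CPM in DMSO and at 56.5 and 51.4 CPM in GDC0449. The GDC0449 libraries lay between the DMSO libraries. The 95% interval was 0.897 to 1.13-fold (edgeR adjusted p = 0.956).

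Egln3 (ENSMUSG00000035105, chromosome 12, 54178981 to 54203860) encodes PHD3, an enzyme whose gene is strongly induced by hypoxia in many cells. It had 73 and 63 reads in DMSO and 172 and 160 reads in GDC0449, which is 3.71 and 3.91 CPM against 8.15 and 7.57 CPM. The groups were well apart and the replicates of each close together. Egln3 rose 2.07-fold, with a 95% interval of 1.61 to 2.65-fold and a log2 fold change of 1.05 ± 0.18 (SE; edgeR adjusted p = 5.39e-06). It ranked 664 of 15472 from the highest log2 fold change. Deposited FPKM were 0.936 and 1.04 in DMSO and 2.01 and 1.88 in GDC0449. On log2(FPKM + 1), a scale that understates changes of scarce genes, the difference was 0.57 and missed the fold threshold (limma adjusted p = 0.0267). Without DMSO replicate 1 the edgeR adjusted p was 0.0499, just inside the threshold.

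The rise left Egln3 a minor part of Egln RNA. Per kilobase of exon it made up 3.72% and 4.24% of the summed level of the 3 genes in DMSO, and 8.02% and 7.94% in GDC0449. The summed level itself was 37.5 and 34.6 CPM per kilobase in DMSO and 38.2 and 35.8 in GDC0449, so the groups overlapped. Egln1 exceeded Egln3 by 11.0 and 10.7 times with DMSO and by 4.87 and 5.13 times with GDC0449.

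**Figure D3:**
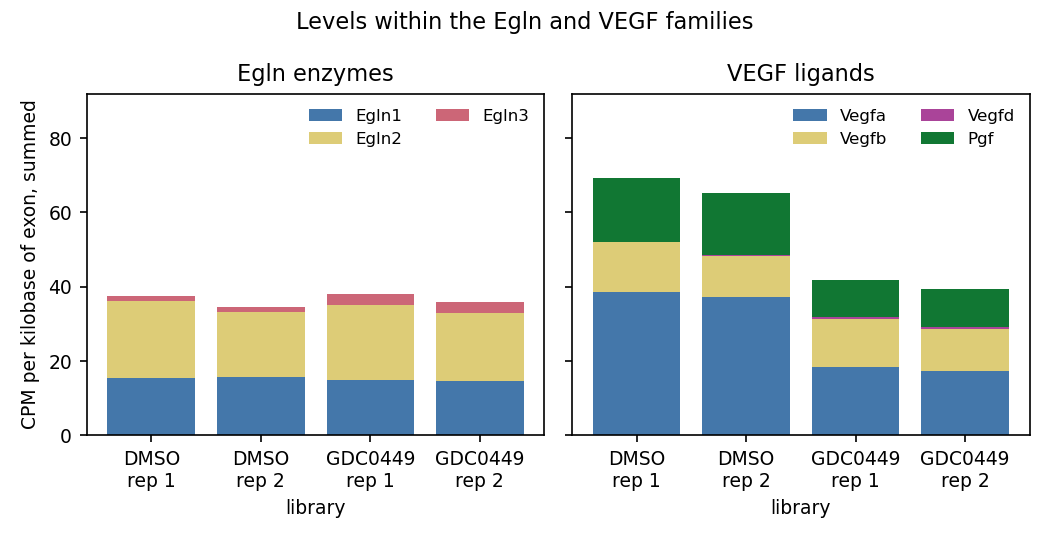
Summed levels of the Egln enzymes and of the VEGF family ligands in each of the 4 libraries, as stacked bars in CPM per kilobase of exon. The Egln sum overlaps between the groups while the Egln3 segment widens; the VEGF sum is 69.2 and 65.4 in DMSO and 41.8 and 39.3 in GDC0449.

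Other genes of the HIF machinery mostly kept within the fold threshold. Of 15 listed partners and regulators, all tested, 1 fell and 0 rose, beside 12.4% of all tested genes called. Their median log2 fold change was -0.08. At the adjusted p alone 2 were higher and 5 lower, where 35.9% of all tested genes passed, a share not split by direction. The gene that fell was Siah2, which encodes a ubiquitin ligase that targets Egln2 and Egln3 protein for destruction. Siah2 was at 23.4 and 25.2 CPM in DMSO and at 15.9 and 13.3 CPM in GDC0449, a fall of 1.66-fold (edgeR adjusted p = 4.73e-07). Without either DMSO replicate the adjusted p was 0.0567 or 0.0673 and the call was lost.

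Cited2, a HIF target that competes with HIF for its coactivators, came close to the threshold. It was at 39.3 and 33.2 CPM in DMSO and at 51.7 and 56.0 CPM in GDC0449, with all GDC0449 values above all DMSO values. Its 1.48-fold difference passed the adjusted p (edgeR, 4.34e-07) and not the fold threshold. It passed both with upper-quartile scaling (log2 0.60) and on log2(FPKM + 1) (0.61). With relative log expression scaling, no expression filter, DESeq2 or a replicate block it stayed under the fold threshold, at 0.55 to 0.57. Dropping a single library moved the estimate both ways. It rose to 0.70 when DMSO replicate 1 was dropped and to 0.62 for GDC0449 replicate 1. It sank to 0.44 for DMSO replicate 2 and to 0.50 for GDC0449 replicate 2. Hif1an, which encodes the asparagine hydroxylase that blocks HIF coactivators, had a log2 fold change of 0.12 and was not called. Cul2, the scaffold of the VHL ligase, had one of -0.25, which passed the adjusted p (edgeR, 0.00548) and not the fold threshold.

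**Figure D4:**
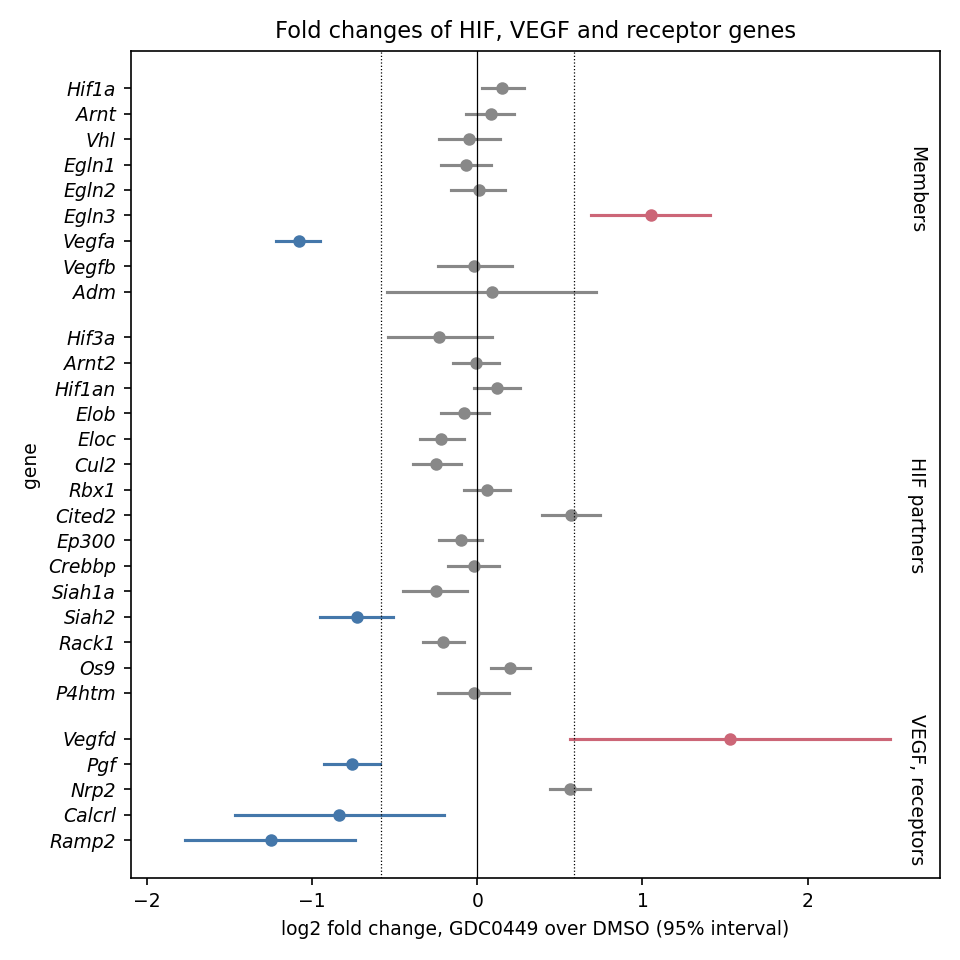
Log2 fold changes, GDC0449 over DMSO, with 95% intervals from edgeR, of the members, the listed HIF partners, and the tested VEGF family and adrenomedullin receptor genes. Dotted lines mark 1.5-fold; called genes are coloured, higher in red and lower in blue. Vegfa, Pgf, Calcrl, Ramp2 and Siah2 were called lower, and Egln3 and Vegfd higher.

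Vegfa RNA fell while Vegfb RNA did not pass the test. Vegfa (ENSMUSG00000023951, chromosome 17, 46016993 to 46032369) encodes the main ligand of vessel growth. It had 3253 and 2566 reads in DMSO and 1673 and 1566 reads in GDC0449, which is 165 and 159 CPM against 79.3 and 74.1 CPM. Every GDC0449 value was under every DMSO value by a gap far wider than the spread within a pair. Vegfa fell 2.12-fold, with a 95% interval of 1.93 to 2.32-fold and a log2 fold change of -1.08 ± 0.07 (SE; edgeR adjusted p = 7.16e-19). It ranked 297 of 15472 from the lowest. The call held in each alternative run, with log2 fold changes from -1.13 to -0.99. Counts per gene do not separate the Vegfa splice forms, which differ in how they bind matrix.

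Vegfb (ENSMUSG00000024962, chromosome 19, 6982473 to 6987651) encodes a ligand of FLT1 that is not a typical hypoxia target. It was at 21.3 and 17.9 CPM in DMSO and at 20.6 and 18.3 CPM in GDC0449. The GDC0449 libraries lay within the DMSO range. The 95% interval was 0.848 to 1.15-fold (edgeR adjusted p = 0.93).

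Placental growth factor also fell. Pgf, another FLT1 ligand, was at 50.0 and 49.2 CPM in DMSO and at 29.2 and 29.4 CPM in GDC0449. The replicates nearly coincided and the groups did not overlap. The fall was 1.69-fold (log2 -0.76 ± 0.08 SE; edgeR adjusted p = 2.30e-10), and it was called in each alternative run. Vegfd, a ligand of lymphatic vessels, rose from 5 and 8 reads to 22 and 23 reads, a scarce transcript (edgeR adjusted p = 0.00996). Leaving out any single library ended its call, at adjusted p of 0.0755 to 0.162, as did testing with no expression filter, at 0.0585. Vegfc had 0 reads in each library.

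The make-up of VEGF family RNA differed between the groups. Per kilobase of exon Vegfa made up 55.8% and 56.8% of the family's summed level in DMSO and 44.2% and 44.0% in GDC0449. The Vegfb share was 19.2% and 17.0% in DMSO and 30.6% and 29.0% in GDC0449. The Pgf share was between 24.1% and 25.9% in all 4 libraries. Vegfa still exceeded Vegfb, by 2.91 and 3.34 times in DMSO and by 1.44 and 1.52 times in GDC0449.

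The signalling receptors for these ligands were nearly absent from the counts. Kdr, the main receptor of Vegfa, had 0 reads in each library, with the same upper limit of 0.0385 CPM as Epas1. Flt1 had 2 reads and Flt4 had 1 read over the 4 libraries. The coreceptor gene Nrp1 had 2 reads in all. Its paralog Nrp2, which also serves semaphorins in axon guidance, was abundant, at 262 and 258 CPM in DMSO and 387 and 380 CPM in GDC0449. Both GDC0449 libraries were higher, by 1.48-fold, which passed the adjusted p (edgeR, 6.94e-11) and lay under the fold threshold. With upper-quartile scaling its log2 fold change was 0.59 and passed.

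Adm (ENSMUSG00000030790, chromosome 7, 110627661 to 110629820) encodes adrenomedullin, a vessel-relaxing peptide and a common HIF target. It was scarce, with 33 and 23 reads in DMSO and 33 and 37 reads in GDC0449, which is 1.68 and 1.43 CPM against 1.56 and 1.75 CPM. The groups overlapped. The 95% interval, 0.684 to 1.65-fold, includes a rise of 1.5-fold, so one of that size cannot be set aside (edgeR adjusted p = 0.866).

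The adrenomedullin receptor genes were lower, at low counts. Calcrl encodes the receptor itself and Ramp2 the partner that tunes it to adrenomedullin. Ramp2 had 80 and 60 reads in DMSO and 33 and 36 reads in GDC0449, with no overlap in CPM, and fell 2.38-fold (edgeR adjusted p = 9.52e-05). Without DMSO replicate 1 its adjusted p was 0.0594. Its deposited FPKM, 12.4 and 13.5 against 9.57 and 9.94, showed a smaller gap than its counts, with a difference of -0.38 on log2(FPKM + 1). They were also far above its counts per kilobase of exon, 1.23 and 1.13 CPM in DMSO and 0.474 and 0.516 CPM in GDC0449. Both the level of Ramp2 and the size of its fall are therefore uncertain. Calcrl had 38 and 42 reads in DMSO and 31 and 22 reads in GDC0449, a fall of 1.79-fold (edgeR adjusted p = 0.0327). That call was lost with DESeq2 (adjusted p = 0.227), with no expression filter (0.111), and without DMSO replicate 1 (0.123), DMSO replicate 2 (0.273) or GDC0449 replicate 2 (0.261). Ramp1 and Ramp3 had 3 and 12 reads over the 4 libraries. Of the 12 genes of other VEGF ligands, VEGF receptors and adrenomedullin receptors 5 passed the filter on low counts.

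In order of level per kilobase of exon, Vegfa stood first in DMSO, at 37.9 ± 1.03 CPM per kilobase (SD, n = 2), before Hif1a at 31.7 ± 0.147, Egln2 at 19.1 ± 2.32 and Egln1 at 15.5 ± 0.217. Vegfb at 12.2 ± 1.52 and Vhl at 10.8 ± 0.597 overlapped, and Arnt followed at 8.42 ± 0.153. Egln3 at 1.43 ± 0.0521 and Adm at 0.959 ± 0.110 came last among those with reads. In GDC0449 Hif1a stood first, at 35.2 ± 0.515, and Vegfa, at 17.9 ± 0.852, overlapped Egln2, at 19.3 ± 1.27. On the deposited FPKM, Vegfa was also above Hif1a in both DMSO libraries (42.3 and 39.9 against 27.1 and 34.7) and below it in both GDC0449 libraries (21.8 and 18.9 against 33.0 and 35.2). By FPKM, however, Arnt was above Vhl in every library. The exchange of places between Vegfa and Hif1a thus did not depend on which of the length-scaled values was used.

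Listed hypoxia targets that were called went both ways, and more of the tested ones lay above 0 than below. Of 30 genes 26 were tested, 2 rose and 2 fell, beside 8.62% and 3.8% of all tested genes called higher and lower. Their median log2 fold change was 0.21, against 0.01 over all tested genes, and 19 of 26 were above 0. At the adjusted p alone, 14 were higher and 3 lower, where 35.9% of all tested genes passed, a share not split by direction. Apart from Ankrd37, Narf, Ero1l and Hmox1, these lay under the 1.5-fold threshold. Car9 and Epo, hypoxia targets best known from other tissues, had 0 reads. Car9 was at 0 FPKM too, whereas the deposited FPKM of Epo were 1.30 and 0.938 in DMSO and 0.475 and 1.14 in GDC0449, so its absence rests on the counts alone.

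Hmox1, which encodes haem oxygenase and also answers to oxidative stress, was at 64.2 and 60.2 CPM in DMSO and at 19.8 and 19.0 CPM in GDC0449, a fall of 3.21-fold (edgeR adjusted p = 9.70e-22). Ero1l, an oxidase of protein folding, fell 2.85-fold. Narf, which encodes a protein that binds prelamin A, rose from 17.9 and 17.8 CPM to 37.4 and 38.1 CPM, or 2.11-fold (edgeR adjusted p = 2.71e-13). Hmox1, Ero1l and Narf were called in each alternative run. Ankrd37 rose from 6 and 7 reads to 11 and 33 reads, a log2 fold change of 1.50 (edgeR adjusted p = 0.0188). Its call was lost with no expression filter (adjusted p = 0.214), on log2(FPKM + 1) (0.25), and without DMSO replicate 1 (0.427), DMSO replicate 2 (0.304) or GDC0449 replicate 2 (0.707, log2 0.51). Examples of those that passed the adjusted p only were Ldha, a glycolytic enzyme, with a log2 fold change of 0.26, Ak4, an adenylate kinase, with 0.45, Pfkfb4, a regulator of glycolysis, with 0.41, and Hk2, a hexokinase, with -0.49. These examples were chosen after their values were seen, and several other genes of sugar use in the list did not pass. Ldha is uncertain: its deposited FPKM were 145 and 155 in DMSO and 326 and 302 in GDC0449, a wider gap than its 556 and 522 against 668 and 622 CPM. In these data Vegfa, itself a hypoxia target, lay with Hmox1 and Ero1l among the lower genes, while Egln3 lay with the higher ones.

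**Figure D5:**
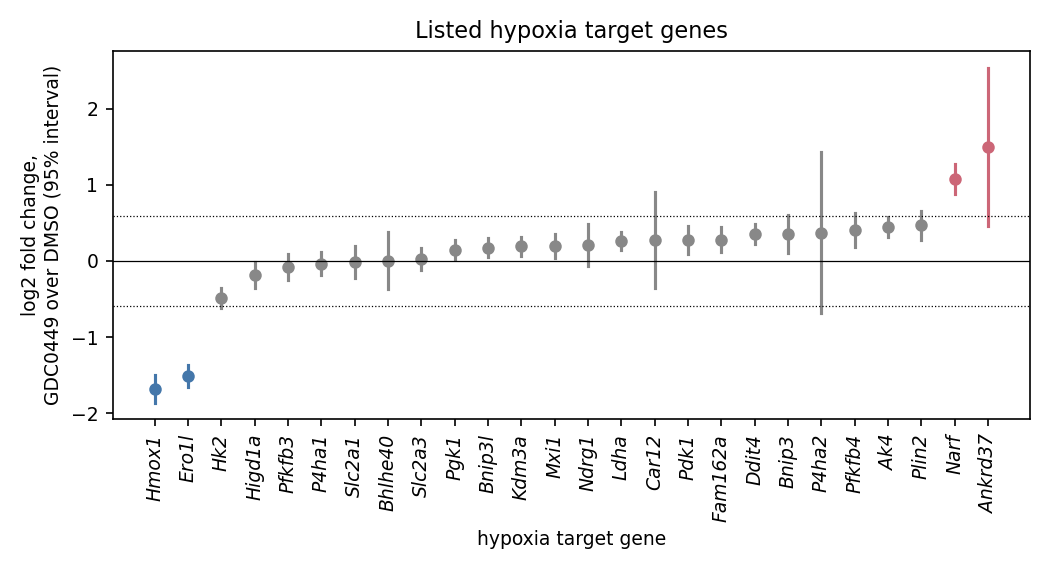
Log2 fold changes, GDC0449 over DMSO, with 95% intervals from edgeR, of the 26 tested genes of the hypoxia target list, in order of size. Dotted lines mark 1.5-fold; Hmox1 and Ero1l were called lower (blue), and Narf and Ankrd37 higher (red).

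Vegfa is known also as a target of ATF4, the transcription factor of amino acid and folding stress. All 12 listed ATF4 targets were tested and fell, with log2 fold changes from -3.09 to -0.68 and a median of -1.58, where 3.8% of all tested genes were called lower. This list was written with earlier results of these data known, so its direction is not independent evidence, and its part in the Vegfa result was not tested. The 3 Hedgehog readout genes, Gli1, Ptch1 and Hhip, also fell, with log2 fold changes of -2.93, -0.96 and -2.56.

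Genes whose values ran most like those of the called members were sought among 10306 protein-coding genes of at least 5 CPM, by the Euclidean distance between mean-centred log2(CPM + 0.5) over the 4 libraries. With 4 libraries in 2 groups, this mostly finds genes of a like fold change. Nearest to Vegfa were Gtpbp2 (distance 0.0416), Lrig3 (0.0427) and Kif21b (0.0513). Nearest to Egln3 were Ypel2 (0.0575), Atp2b2 (0.0618) and Chst15 (0.0625).

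Gtpbp2 (chromosome 17, 46161032 to 46169370), whose product rescues stalled ribosomes, lies 129 kb from Vegfa. It was at 165 and 157 CPM in DMSO and at 78.0 and 71.0 CPM in GDC0449, values close to those of Vegfa in all 4 libraries. Tested genes between them and next to Gtpbp2 were not called. Mrps18a, Rsph9 and Mad2l1bp, which lie between them, had log2 fold changes of -0.39, 0.14 and -0.16, and Polh, just beyond Gtpbp2, had one of -0.01. Of these only Mrps18a passed the adjusted p (edgeR, 2.00e-04), and it lay under the fold threshold. This neighbourhood was looked at after its values were seen.

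Markers of other cell types that can make or receive VEGF differed in places between the groups. Astrocyte markers, 8 listed and 2 of them (Aqp4 and Aldh1l1) at 0, summed to 200 and 216 CPM in DMSO and to 301 and 308 CPM in GDC0449. Most of that gap was Slc1a2, at 72.5 and 83.4 CPM in DMSO and 178 and 175 CPM in GDC0449. Slc1a2 and Aldoc were called higher. Gfap (log2 0.70, edgeR adjusted p = 0.0876), Gja1 (-0.22, passing the adjusted p only), Slc1a3 (-0.07) and S100b (-0.60) were not called. Microglia and macrophage markers, 7 listed, summed to 4.37 and 5.83 CPM in DMSO and to 1.99 and 2.60 CPM in GDC0449, with Tyrobp and Lyz2 called lower. Most of that sum was Lyz2, at 2.95 and 4.16 CPM in DMSO and 1.28 and 1.85 CPM in GDC0449. Csf1r (log2 -0.77) was not called. Cx3cr1, P2ry12, Aif1 and Itgam were nearly absent, with 3, 4, 3 and 2 reads over the 4 libraries, and were not tested. Pericyte markers, 5 listed and 2 (Kcnj8 and Abcc9) at 0, summed to 6.91 and 8.19 CPM in DMSO and to 5.30 and 6.68 CPM in GDC0449. Pdgfrb, with 68 reads over the 4 libraries, was called lower. Most of the sum was Cspg4, at 5.85 and 6.57 CPM in DMSO and 6.25 and 4.69 CPM in GDC0449. Its groups overlapped and it was not called (log2 -0.18). Neuron markers, 6 listed and 5 called higher where 8.62% of all tested genes were, summed to 793 and 842 CPM in DMSO and to 1513 and 1601 CPM in GDC0449. The part of these shifts in the Vegfa and Egln3 results was not tested.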

How the data were processed

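Trim Galore removed adapters, HISAT2 mapped reads to mm10, HTSeq 0.11.1 counted them and DESeq2 1.26.0 tested them, per the series' design text and the submitters' processing notes. The sources used here do not state the annotation, strand setting or RNA selection, so overlapping genes are uncertain. For every library the authors deposited unnormalized read counts by gene, and FPKM, which scale reads by gene length and sequencing depth. For 546 genes counts are 0 and FPKM at least 1 in all libraries, so the 2 units do not come from one assignment of reads. Library sizes and tests leave out 6 further entries that name no gene; reads outside genes were 12.3% to 14.4% per library.

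Symbols, spans and exon lengths (all annotated exons merged) came from GENCODE M21 (GRCm38), which matched 55480 of 55573 identifiers. The main test of the counts was the quasi-likelihood test of edgeR 4.0.16, run in R 4.3.3 (TMM, default filter, group as the only term, all 4 libraries), with Benjamini-Hochberg adjustment over all 15472 tested genes. The estimated biological coefficient of variation was 4.82%. Standard errors are the log2 fold change over the square root of F, and 95% intervals use the moderated degrees of freedom. The test was checked on simulated counts. Floors of 3 reads cover counting error only.

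The alternatives tried were upper-quartile or relative log expression scaling, no expression filter, DESeq2 1.42.0, limma 3.58.1 on log2(FPKM + 1) with at least 1 FPKM in 2 libraries, a replicate block, and leaving out each library. Named genes are the 10 members, list genes that were called or of known role, and the 3 nearest in pattern to each called member. Members and lists were chosen with earlier results of these data known.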

Additional observations from a re-analysis of the deposited data

How the results depend on the processing

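Vegfa was called lower in each alternative, and Egln3 higher in each except on log2(FPKM + 1), where 0 members were called higher. Leaving out 1 library, the log2 fold change of Vegfa ranged from -1.13 to -1.04 and that of Egln3 from 0.99 to 1.10. Counts over all genes, 1333 higher and 588 lower, were 520 and 350 on log2(FPKM + 1), where 13084 genes were tested, and DESeq2 called 781 higher and 443 lower. Without 1 library they ranged from 505 to 1130 higher and from 347 to 581 lower; without DMSO replicates 1 and 2 there were 572 and 505 higher and 357 and 347 lower, and the cause was not tested. Hypoxia targets called higher numbered 2, but 1 with no expression filter and with DESeq2, and from 1 to 2 when a library was left out. Some members that were not called changed sign: Arnt on log2(FPKM + 1), at -0.00063; Egln2 with DESeq2, at -0.01, and without DMSO replicate 2 or GDC0449 replicate 1, from -0.12 to 0.14 over the libraries left out; Vegfb with upper-quartile scaling, at 0.02, and from -0.14 to 0.12 over the libraries left out; Vhl from -0.12 to 0.02 and Adm from -0.03 to 0.21 over the libraries left out. Replicate numbers are shared between the groups, but the labels do not say that they pair the samples, and the correlation of same-numbered deviations was 0.0611 over tested genes and 0.257 over those of at least 8 CPM, with only 2 pairs. With a replicate block 1392 genes were higher and 608 lower, with Vegfa at -1.08 and Egln3 at 1.05, and no call of a member changed. Among members with reads, Adm had the fewest, at 23 to 37 per library.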
